A study of Homo sapiens with 12 samples.

Results

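The polysome-associated mRNA of SUM159 cells was compared between 2 libraries with TRMT112 knockdown (KD) and 2 libraries with a control vector (EV CTRL, here EV). It was described over the 11818 genes whose counts averaged 50 or more across these 4 libraries, of 24559 gene symbols in the deposited table, which holds 12 libraries from 3 cell lines. With TRMT112 reduced, all 16 NF-kB targets and chemokines, 19 of 22 ATF4 target genes and all 22 cytosolic aminoacyl-tRNA synthetases described were lower on polysomes. By contrast, 26 of 35 contractile and actin-binding genes, 55 of 78 cytosolic ribosomal proteins and 46 of 75 respiratory chain genes were higher. Ribosomal protein and respiratory chain mRNAs are mostly short, and 49.7% of protein-coding genes in the shortest quintile of transcript length were higher. Of the 11818 genes, 4110 (34.8%) rose in KD and 4672 (39.5%) fell by edgeR's quasi-likelihood test at an adjusted p-value under 0.05, and 629 (5.32%) and 898 (7.6%) of them changed by at least 1 log2 unit.

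SUM159 is an established human triple-negative breast cancer line, labelled as a mammary line with no treatment and grown in DMEM/F-12 medium with serum, insulin and hydrocortisone. KD cells carried a GIPZ vector with an shRNA against TRMT112, and EV cells a GIPZ vector with a non-silencing shRNA. Both vectors were transfected and both cell populations were kept under puromycin selection, so the selection was shared by the groups. The labels do not say whether the libraries of a group came from separate cultures. The p-values therefore measure the spread between libraries of a group, estimated jointly over all 12 libraries, which may be technical.

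TRMT112 is a small protein without catalytic activity of its own that binds and stabilizes several methyltransferases, which methylate ribosomal RNA, transfer RNA and a translation termination factor. A polysome is an mRNA with several ribosomes on it. It is separated on a sucrose gradient, and its RNA reports which mRNAs are being translated. Because no total RNA was sequenced beside the polysomes, the amount of an mRNA and its loading with ribosomes cannot be told apart in any value given here, and because each library was scaled to the others, a change in the total amount of polysomes is not seen.

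The total of expected counts lay between 22954226 and 27434677 in these libraries. A normalized count is the sum of expected counts over the transcripts of a gene, scaled by TMM to a library of 23907900 counts. Replicates lay close together, since the EV pair differed by 0.063 log2 units and the KD pair by 0.076 for the median gene. Against sampling noise alone, the mean chi-square per gene was 2.27 and 3.21, where a library split at random would give 1. The median log2 fold change over the 11818 genes was -0.04, and the quartiles were -0.45 and 0.35. The 3036 genes not called were joined by many small calls, since 4157 called genes changed by less than 0.5 log2 units. Of the markers of other cell types, PTPRC of leukocytes stood at 1.0, 1.0, 6.0 and 13.8 normalized counts in EV 1, EV 2, KD 1 and KD 2. CD68 was the only leukocyte marker described and had a log2 fold change of -0.31. The leukocyte markers together, mostly CD68, held 677 and 721 normalized counts in EV and 577 and 549 in KD. CDH5 of endothelium stood at 0 in all 4 libraries. PECAM1, an adhesion molecule of endothelium and platelets, rose from 24.2 and 25.1 to 88.7 and 102.9. The epithelial markers CDH1, EPCAM and KRT19 held at most 4.0 normalized counts in any of the libraries, whereas KRT8 and KRT18 reached 4910 and 4731 in EV 1 and the mesenchymal markers VIM, FN1 and AXL were abundant.

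**Figure D1:**
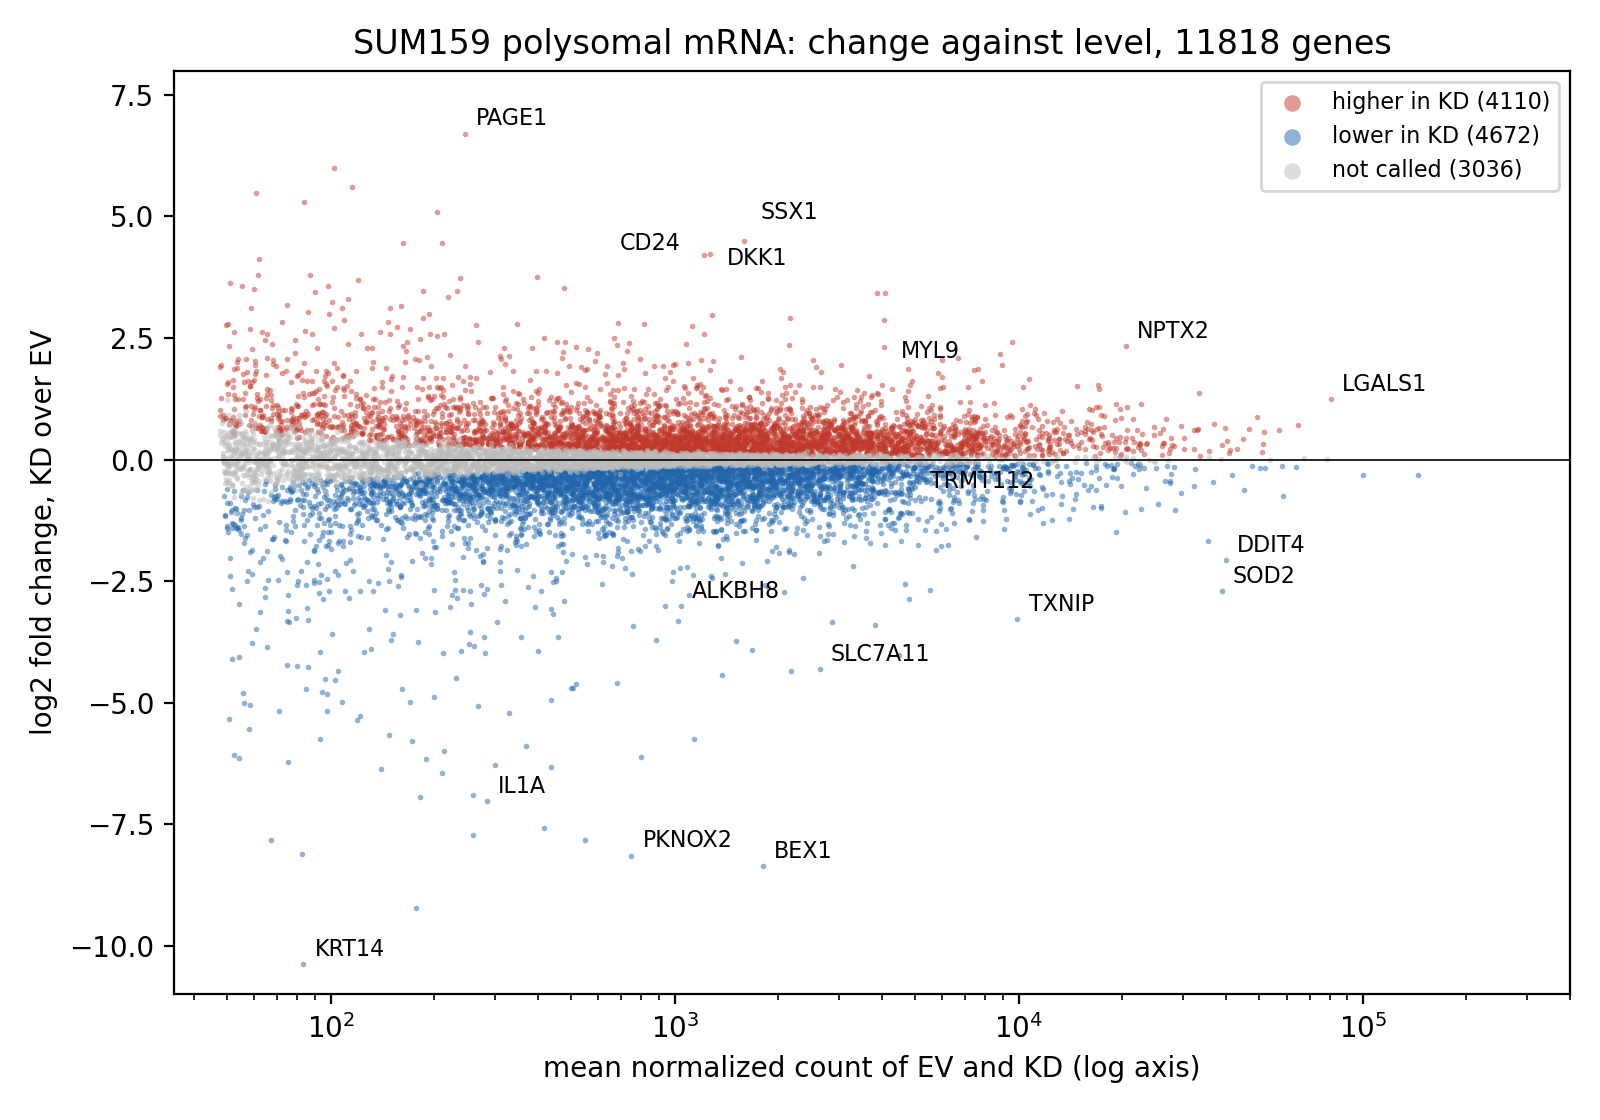
Change of each of the 11818 genes (vertical axis, log2 fold change of KD over EV) against its mean normalized count (horizontal log axis), one point per gene, coloured by the call. The 4110 higher and 4672 lower genes span all levels, and the changes beyond 5 log2 units lie mostly below zero, with KRT14, BEX1 and PKNOX2 at the lower edge and PAGE1 at the upper.

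The targeted gene was checked first. TRMT112, at chr11:64316460-64317559 on the minus strand of GRCh38, stood at 6332 and 6566 normalized counts in the EV libraries and at 3909 and 3699 in the KD libraries. The groups did not overlap, and the log2 fold change was -0.76 (SE 0.037, adjusted p = 1.76e-14). The labels of the groups and the level of the target therefore point the same way.

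The mRNAs of the methyltransferases that depend on TRMT112 went both ways. Of a list of 8, which holds the known partners and the related HEMK1, 5 fell, 2 rose and 1 was not called, beside 39.5% of all genes that fell and 34.8% that rose. ALKBH8, which methylates the wobble uridine of certain tRNAs and lies at chr11:107502727-107565742, stood at 1798 and 1915 normalized counts in EV and at 226 and 233 in KD. That was a log2 fold change of -3.02 (SE 0.073, adjusted p = 5.33e-20) and the largest among the 8 genes. TRMT11, which methylates a guanosine of tRNA, fell from 674 and 687 to 269 and 279, a log2 fold change of -1.31 (SE 0.084). THUMPD2 and THUMPD3, which methylate guanosines of a small nuclear RNA and of tRNAs respectively, had log2 fold changes of -0.81 and -0.52. The enzymes of ribosomal RNA moved least. BUD23, which methylates a guanosine of 18S rRNA, stood at 6696 and 6539 in EV and 6233 and 6101 in KD, and METTL5, which methylates an adenosine of the same rRNA, at 2331 and 2239 against 2394 and 2513. The first passed the test at a log2 fold change of -0.10 and the second did not (0.10, adjusted p = 0.0817). HEMK1 and N6AMT1, which methylate translation termination factors, had log2 fold changes of 0.29 and 0.25. The call of BUD23 was lost with RLE size factors (-0.05, adjusted p = 0.21), with DESeq2 (adjusted p = 0.224) and without EV 1 (0.0741) or KD 2 (0.0681), and those of HEMK1 and THUMPD2 when the main transcript alone was counted (0.22 and -0.42). N6AMT1 lost its call with library size as the only scaling, with the main transcript alone, under a replicate block (adjusted p = 0.0557) and without any of EV 1, EV 2 or KD 2, while METTL5 was called with RLE size factors (0.16, adjusted p = 0.00965), with DESeq2 (adjusted p = 0.0137) and with the SUM159 libraries fitted alone (adjusted p = 0.0356).

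**Figure D2:**
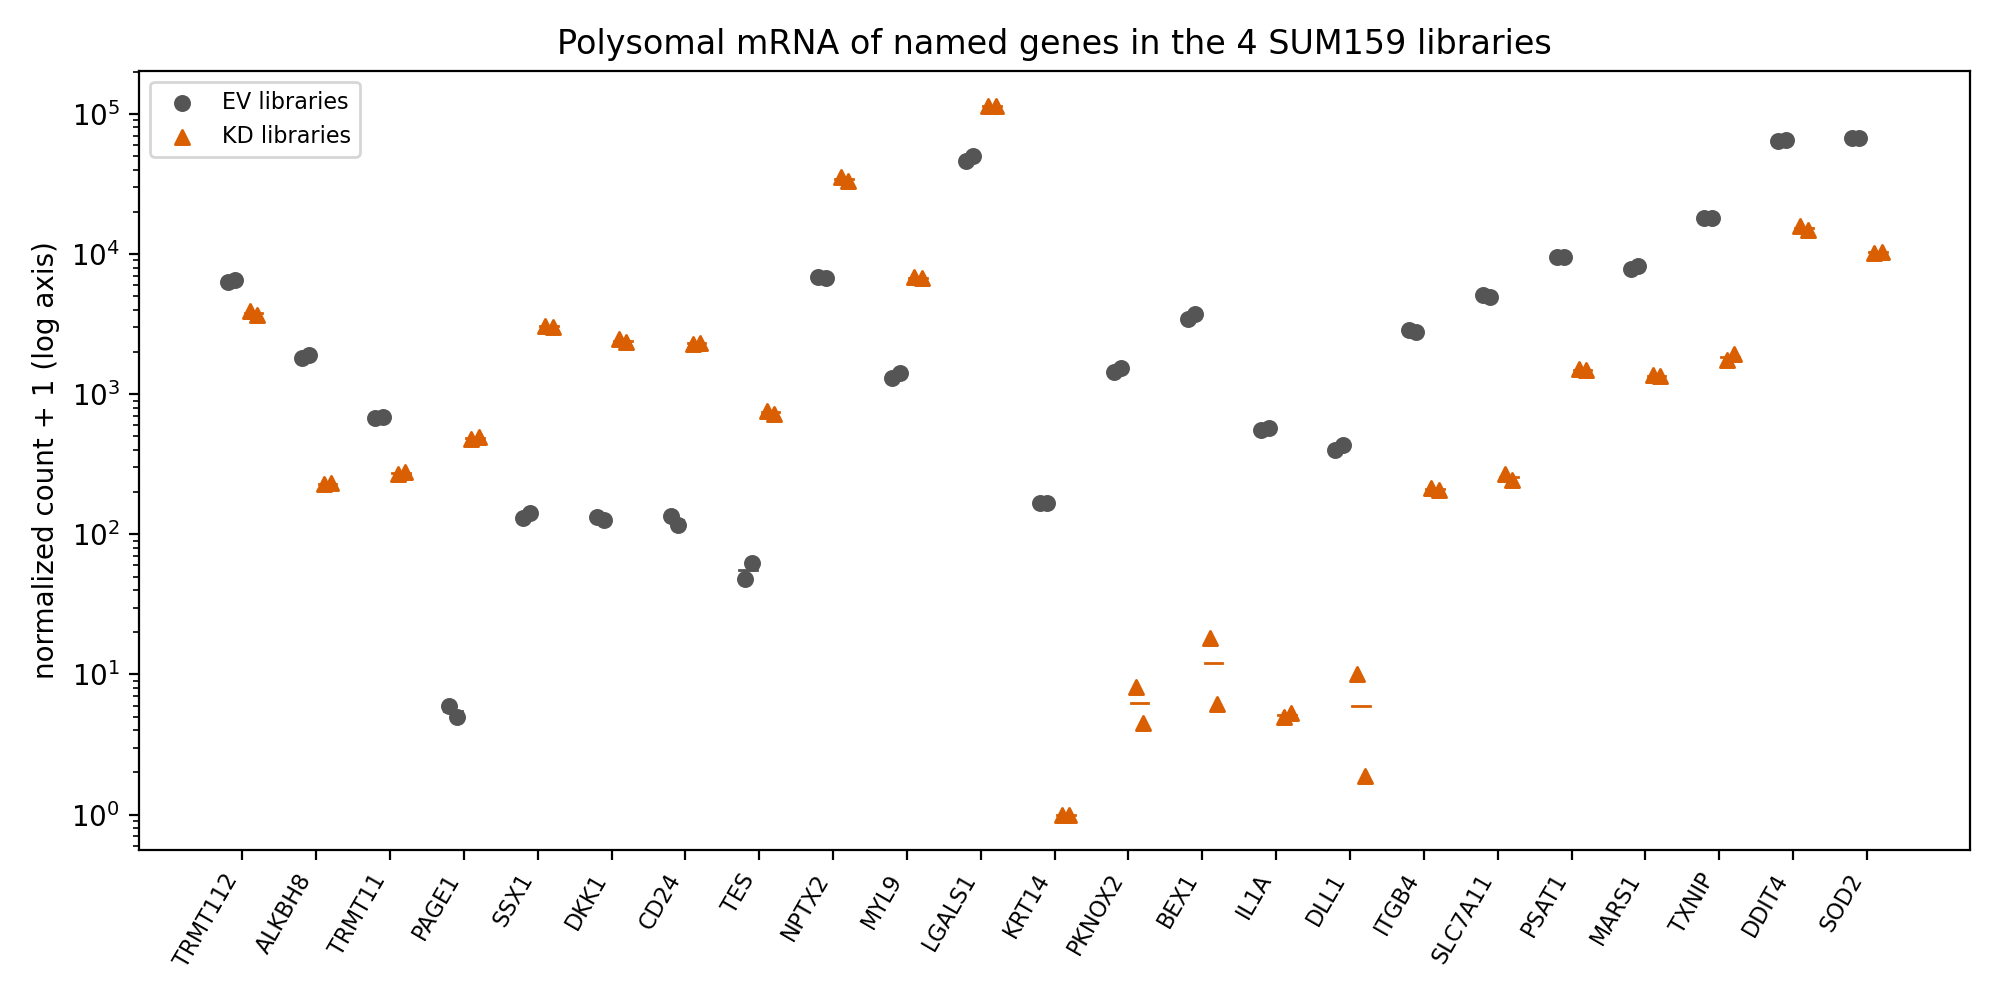
Normalized counts (plus 1, log axis) of 23 genes in the 2 EV libraries (circles) and the 2 KD libraries (triangles), with a line at each group's mean. For every gene shown the EV and KD points do not overlap, and TRMT112 itself has one of the smallest gaps while KRT14 falls to 0 counts.

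Some mRNAs were present in one state and almost missing in the other. Of the 11818 genes, 43 had a mean of at least 100 normalized counts in EV and of at most 10 in KD, and 9 had the opposite. The 43 genes lay on 16 chromosomes. KRT14, the keratin of basal epithelial cells, at chr17:41582279-41586895, had 165 and 166 reads in EV and 0 in both KD libraries, which is at least 59.3-fold lower against a floor of 3 counts per library. ACOT2, an acyl-CoA thioesterase of mitochondria, had 342 and 359 reads in EV and 0 and 1 in KD, a ratio of 758 with an exact 95% counting interval of 136 to 29998. Reads of ACOT2 could have been divided with its near-identical neighbour ACOT1 in the authors' counting.

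BEX1, a small brain-expressed X-linked protein encoded at chrX:103062651-103064171, had the highest EV level among the 20 largest falls. It stood at 3448 and 3734 normalized counts in EV and at 17.1 and 5.2 in KD, a log2 fold change of -8.37 (SE 0.153, adjusted p = 1.09e-20), or of -9.40 without KD 1 and -7.70 without KD 2. The homeobox gene PKNOX2 fell from 1435 and 1546 to 7.1 and 3.5, and RASIP1, a Ras-interacting protein of vessel formation, from 1114 and 1068 to 5.0 and 4.3. Among the largest falls were genes with products at the cell surface or outside the cell. SERPINA3, a secreted inhibitor of proteases, stood at 817 and 841 in EV and at 2.0 and 6.1 in KD. The Notch ligand DLL1 stood at 401 and 434 in EV and at 9.1 and 0.9 in KD, and the adhesion protein FLRT2 at 522 and 510 against 5.0 and 3.5. The proprotein convertase PCSK6 fell from a mean of 863.2 (SD 26.1, n = 2) to one of 10.5 (SD 3.47, n = 2), and the secreted C1QTNF1 from 1642 and 1499 to 30.2 and 15.6. HCLS1, a cortactin-like protein known from blood cells, had 352 and 364 reads in EV and 3 and 3 in KD. The remaining members of the 20 largest falls were FCAR, MT1E, SV2A, MDFI, LAYN, CACNB4, NUP210, FUT1 and IL1A, whose EV means ran from 106.8 (FUT1) to 591.3 (LAYN) and whose KD means were at most 7.6 normalized counts.

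The largest rises included a pair of cancer-testis antigens of the X chromosome, which are normally silent outside the germ line. PAGE1, at chrX:49687447-49695984, rose from 5.0 and 4.0 normalized counts to 479 and 494, a log2 fold change of 6.71 (SE 0.287, adjusted p = 3.66e-14). SSX1, at chrX:48255392-48267444, rose from 130 and 141 to 3078 and 3011, a log2 fold change of 4.49 (SE 0.099). Over all 366 genes described on the X chromosome the median was 0.10. PAGE1 and SSX1 belong to families of near-identical copies, between which the authors' counting could have divided reads.

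DKK1, a secreted inhibitor of Wnt signalling at chr10:52314281-52318042, stood at 132 and 125 normalized counts in EV and at 2484 and 2338 in KD. Its log2 fold change was 4.23 (SE 0.065, adjusted p = 1.14e-23). CD24, a glycosylated surface protein whose absence is used with CD44 to sort stem-like breast cancer cells, rose from 134 and 116 to 2280 and 2321. TES, a LIM domain protein of focal adhesions, rose from 47.4 and 61.3 to 757 and 725, and IGFBP5, a secreted binding protein of insulin-like growth factors, from 12.1 and 11.1 to 165 and 160. A pair of zinc finger genes, ZNF93 and ZNF595, had log2 fold changes of 5.49 and 4.46, the first resting on 1 and 4 reads in EV and standing at 4.84 without EV 1 and at 6.70 without EV 2. Also among the 20 largest rises were ILDR2, PLEKHA7, TMEM130, ST6GALNAC5, CLIC3, MACROD2, HS3ST1, the pseudogene GRAMD4P7, RBP4 and SLC2A5, and all of them had EV means of at most 33.2 normalized counts.

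The largest losses of normalized counts were those of SOD2, DDIT4 and SLC7A5, a measure that favours abundant and long mRNAs. SOD2, the manganese superoxide dismutase of mitochondria, stood at 67071 and 67736 normalized counts in EV and at 10243 and 10405 in KD, a log2 fold change of -2.71 (SE 0.027, adjusted p = 1.13e-26). DDIT4, a stress-induced inhibitor of mTORC1, fell from 63996 and 65231 to 15869 and 14954, and TXNIP, an inhibitor of thioredoxin and of glucose uptake, from 17979 and 17981 to 1741 and 1937. Further large losses of reads were of ENO1 (-0.75), ANXA2 (-1.05), HNRNPA1 (-0.62), HNRNPA2B1 (-1.49), ACTB (-0.31) and EEF1A1 (-0.32), each given as a log2 fold change. The largest gain of reads was that of LGALS1, the secreted lectin galectin-1, from 46062 and 50243 to 113491 and 113668. It was followed by CFL1 (0.71) and MYL6 (1.36) of the actin cytoskeleton, TPM4 (0.88), the neuronal pentraxin NPTX2 (2.33), IGFBP4 (0.61), the histone variant H2AZ1 (0.57), the clathrin adaptor AP2M1 (0.62), RHOA (0.73) and its inhibitor ARHGDIA (0.64).

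The machinery of translation moved in parts, and not in one direction. All 22 cytosolic aminoacyl-tRNA synthetases described, which load tRNAs with amino acids, were lower, against 39.5% of all genes, and their median log2 fold change was -1.08 beside -0.04 over all genes. MARS1, the methionyl-tRNA synthetase, fell the most, from 7761 and 8206 normalized counts to 1373 and 1341, a log2 fold change of -2.56 (SE 0.039, adjusted p = 1.07e-23). TARS1 had a log2 fold change of -1.75, SARS1 of -1.72, IARS1 of -1.67 and GARS1 of -1.62. Of the 17 mitochondrial synthetases 14 were lower, with a median of -0.54.

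Assembly factors of the ribosome fell nearly as a body. Of 57 members of the small-subunit processome 50 were lower and 4 higher (median -0.80), and of 49 large-subunit assembly factors 47 were lower and 1 higher (median -0.83). WDR43, a processome subunit, stood at 3405 and 3351 normalized counts in EV and at 904 and 905 in KD. UTP6, a neighbour in the same complex, had a log2 fold change of -1.89, the rRNA pseudouridine synthase DKC1 of -1.09 and nucleolin, NCL, of -1.31. RNA polymerase I and its factors, which make the precursor of rRNA, had 11 of 15 members lower and 1 higher, among them the initiation factor RRN3 (-1.52) and the core subunit POLR1B (-1.41).

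The ribosomal proteins themselves went the other way. Of 78 cytosolic ribosomal protein mRNAs 55 were higher and 9 lower, with a median of 0.24 and none changed by 1 log2 unit. RPL28 rose from 13541 and 13838 normalized counts to 22209 and 21124 (log2 fold change 0.66), and RPL13 by 0.61. RPL4 and RPL3 fell, with log2 fold changes of -0.48 and -0.18. The 77 mitochondrial ribosomal proteins were split, with 30 higher and 31 lower.

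Translation factors were mostly lower. Of 43 initiation factors and their regulators 30 were lower and 10 higher (median -0.31), and of 16 elongation and termination factors 14 were lower and 1 higher (median -0.36). EIF3B, a scaffold subunit of eIF3, fell from 13370 and 13128 to 5065 and 4766, a log2 fold change of -1.43. EIF4A1, the helicase that unwinds mRNA ahead of the ribosome, had a log2 fold change of -0.95, and ABCE1, which recycles ribosomes, of -1.39. EIF4G2, a factor of cap-independent initiation, rose by 0.39.

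Several of the synthetases are regulated together with genes of amino acid synthesis and uptake by the transcription factor ATF4 when amino acids are scarce. Most of those genes of synthesis and uptake fell too. The list of ATF4 target genes is wider and also holds ATF3, PPP1R15A, DDIT4 and ATF4 itself. Of its 22 members described, 19 were lower and 1 higher, with a median of -1.37. SLC7A11, the cystine transporter, stood at 5122 and 4934 normalized counts in EV and at 268 and 241 in KD, a log2 fold change of -4.31 (SE 0.060, adjusted p = 3.37e-24). CHAC1, which degrades glutathione, fell from 1363 and 1400 to 129 and 127. ATF4 itself fell from 18807 and 19693 to 9540 and 9571. Of 23 enzymes of serine, glycine and one-carbon metabolism 16 were lower and 4 higher (median -0.62), led by PSAT1 (-2.68), PHGDH (-2.19) and SHMT2 (-1.85), all enzymes on the way from glucose to serine, glycine and one-carbon units. Of 20 amino acid transporters 11 were lower, among them SLC6A9 for glycine (-2.50), SLC7A2 for arginine (-2.35) and SLC1A5 for glutamine (-1.78), and 4 were higher.

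Promoter sequences of the synthetases are shown because several carry the ATF4 core letters close to the start of transcription. The letters TGATGNAA were searched on both strands in 300 bases around each start (250 before and 50 after) of the RefSeq promoter table of GRCh38.p14, and 3.67% of its 27305 promoters held a match, as did 1.64% of those of the genes described. Of the 18 synthetase genes with a promoter in the table, 6 (33.3%) held a match, namely AARS1, CARS1, IARS1, MARS1, NARS1 and TARS1. Of the 18 matched ATF4 target genes 3 did (ASNS, CHAC1 and ATF3). Among the genes lower by at least 1 log2 unit 4.08% held a match, among those higher by as much 2.21%, and among the genes not called 1.31%. The motif was chosen with these changes known, and a match shows letters and not binding. The ATF4 list and several of the synthetases are genes known to be regulated by ATF4, so matches among them say nothing about the knockdown. The 4.08% among the lower genes takes in members of both. The following stretches run from 100 bases before to 20 after the start, 5′ to 3′ on the strand of the gene, with the match in capitals, and come from chr12:57487968-57488087 (plus strand, MARS1), chr11:3057404-3057523 (minus, CARS1), chr5:33440865-33440984 (plus, TARS1), chr9:92293678-92293797 (minus, IARS1) and chr7:97872389-97872508 (minus, ASNS).
MARS1: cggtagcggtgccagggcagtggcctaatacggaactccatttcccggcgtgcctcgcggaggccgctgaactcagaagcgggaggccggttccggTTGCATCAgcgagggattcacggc
CARS1: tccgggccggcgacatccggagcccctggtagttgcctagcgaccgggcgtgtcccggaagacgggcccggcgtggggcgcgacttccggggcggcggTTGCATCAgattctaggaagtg
TARS1: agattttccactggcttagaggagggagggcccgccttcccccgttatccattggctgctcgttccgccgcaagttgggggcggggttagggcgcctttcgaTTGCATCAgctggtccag
IARS1: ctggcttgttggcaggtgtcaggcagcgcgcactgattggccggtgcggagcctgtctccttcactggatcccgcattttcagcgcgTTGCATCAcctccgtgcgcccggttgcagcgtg
ASNS: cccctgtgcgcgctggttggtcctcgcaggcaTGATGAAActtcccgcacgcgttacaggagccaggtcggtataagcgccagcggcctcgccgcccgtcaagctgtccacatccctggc
In MARS1, CARS1, TARS1 and IARS1 the match is the same 8 letters, on the opposite strand to the gene, and its first base lies at -4, -2, 2 and -13, counted from the RefSeq start as 0. In ASNS, the asparagine synthetase, it lies at -68 on the strand of the gene. CARS1, shown for its promoter and chosen after its values were seen, had a log2 fold change of -1.88, and ASNS of -2.73.

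**Figure D3:**
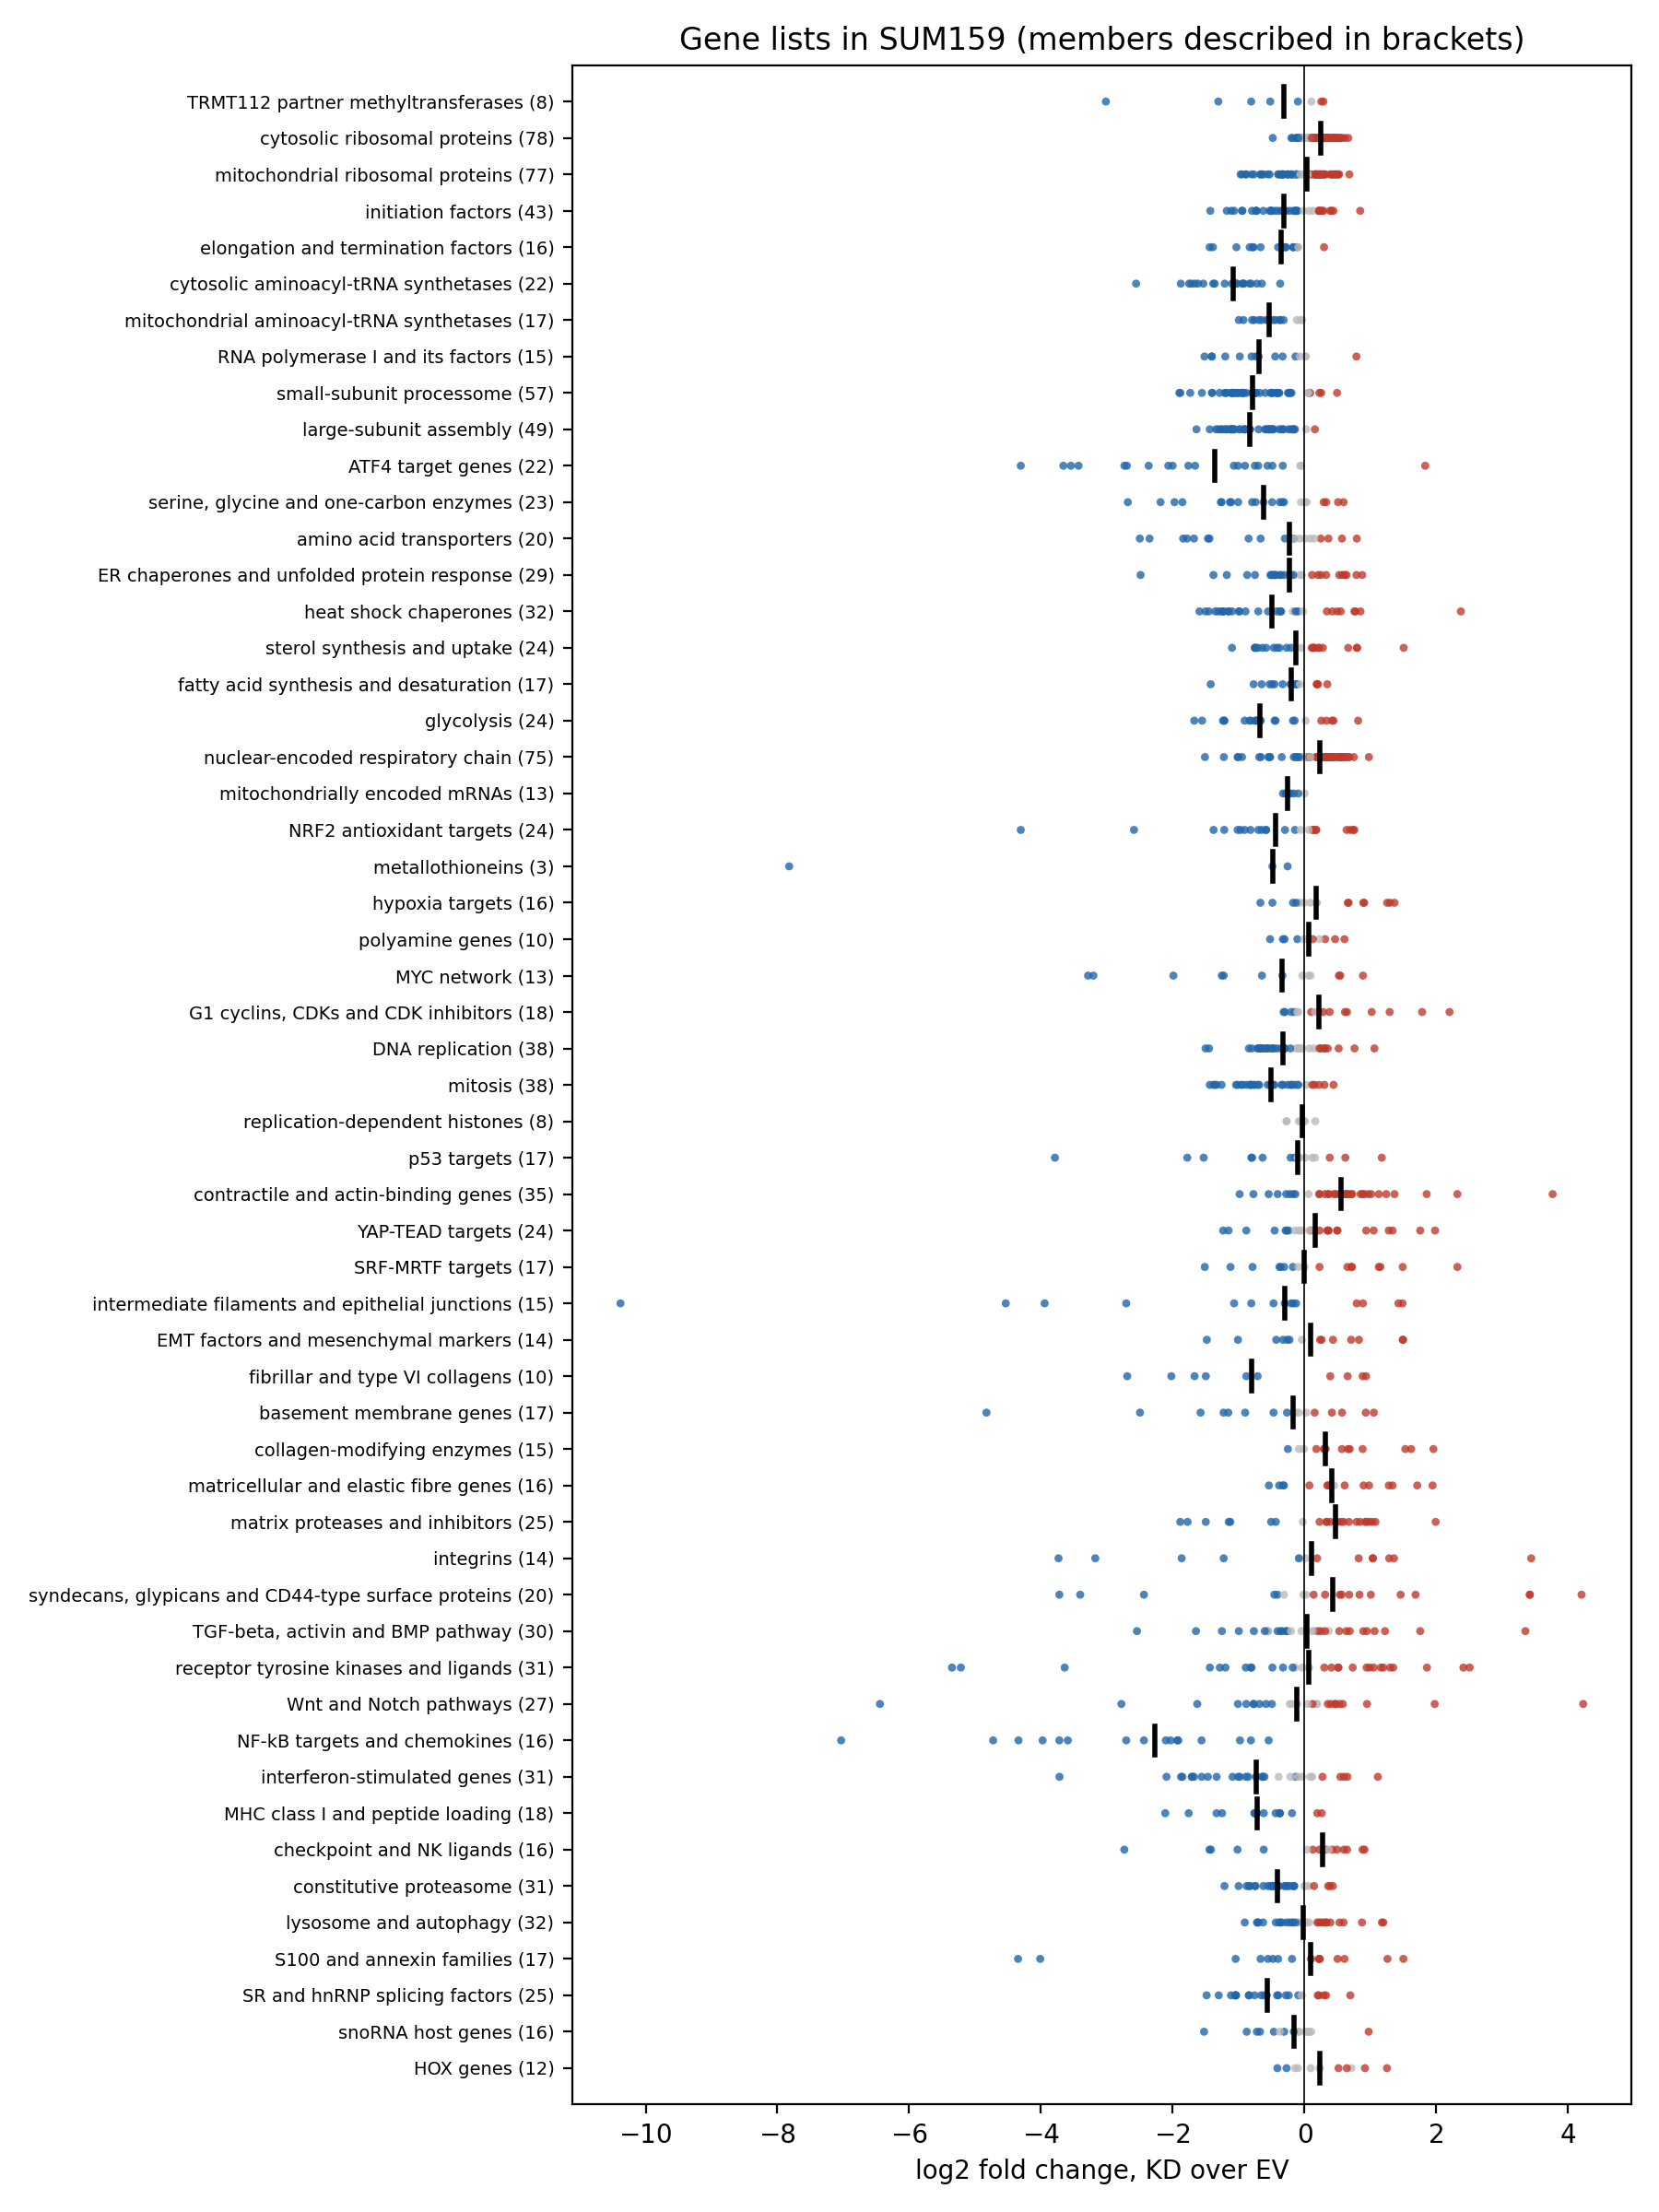
Log2 fold change of KD over EV (horizontal axis) of every described member of 55 gene lists (rows, with the number of members in brackets), red where higher, blue where lower, grey where not called, with a black bar at the median. NF-kB targets, ATF4 targets and cytosolic aminoacyl-tRNA synthetases have the lowest medians (-2.27, -1.37 and -1.08), and the contractile list has the highest (0.55).

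The NF-kB response was lower throughout the list. All 16 described targets and chemokines fell, against 39.5% of all genes, 13 of them by at least 1 log2 unit, and the median was -2.27. IL1A, the cytokine interleukin-1 alpha at chr2:112773925-112784493, stood at 556 and 574 normalized counts in EV and at 4.0 and 4.3 in KD. ICAM1, which binds leukocyte integrins, fell from 1648 and 1640 to 141 and 110, a log2 fold change of -3.72 (SE 0.094, adjusted p = 1.19e-19). The subunits RELB and NFKB2 of the non-canonical pathway had log2 fold changes of -2.44 and -2.03, and the inhibitor NFKBIA, itself a target, of -1.56. IL32 had a log2 fold change of -0.98 and SOD2, given above, is on this list as well.

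Letters of the NF-kB site were searched in the same promoters. GGANTTTCC, on either strand, was in 1.64% of all promoters of the table and also in 1.64% of those of the genes described, and in 8 of the 13 matched members of the list (61.5%): NFKBIA, NFKB1, TNFAIP3, CXCL2, CXCL3, CXCL8, IL32 and ICAM1. Among the genes lower by at least 1 log2 unit 4.23% held it, among those higher by as much 0.442%, and among the genes not called 1.44%. The looser GGNNNTTCC, which takes in the first form, was in 20.1% of all promoters and in 9 of the 13, and GGGNNTTCC was in 6.6% and in 4 of the 13. These forms were compared with the changes known, and the first was the one in which the list stood furthest from the table. The list was drawn up from known NF-kB targets, so matches among its members say nothing about the knockdown. The 4.23% among the lower genes takes in members of the list. The stretches below show it in capitals, over the same 120 bases around the start, from chr4:74099176-74099295 (minus, CXCL2), chr4:74038670-74038789 (minus, CXCL3), chr4:73740469-73740588 (plus, CXCL8), chr4:102501259-102501378 (plus, NFKB1) and chr16:3065303-3065422 (plus, IL32).
CXCL2: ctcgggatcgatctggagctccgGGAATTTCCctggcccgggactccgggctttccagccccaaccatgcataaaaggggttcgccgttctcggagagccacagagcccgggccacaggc
CXCL3: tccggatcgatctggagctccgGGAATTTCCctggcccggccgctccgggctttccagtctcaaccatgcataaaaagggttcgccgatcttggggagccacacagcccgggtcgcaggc
CXCL8: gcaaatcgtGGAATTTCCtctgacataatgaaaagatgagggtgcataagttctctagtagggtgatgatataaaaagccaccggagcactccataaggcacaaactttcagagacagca
NFKB1: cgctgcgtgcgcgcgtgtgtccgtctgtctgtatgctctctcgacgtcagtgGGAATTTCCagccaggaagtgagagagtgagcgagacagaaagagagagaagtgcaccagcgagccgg
IL32: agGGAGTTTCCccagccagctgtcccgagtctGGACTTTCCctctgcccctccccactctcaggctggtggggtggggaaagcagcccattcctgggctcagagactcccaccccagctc
CXCL2, CXCL3, CXCL8 and NFKB1 carry the same 9 letters, once each in this stretch, and IL32 carries 2 matches. The neutrophil chemokine CXCL8 stood at 541 and 517 normalized counts in EV and at 31.3 and 35.5 in KD, CXCL2 at 299 and 322 against 8.1 and 14.7, and CXCL3 at 197 and 204 against 9.1 and 10.4. NFKB1, which encodes the p50 subunit, fell from 3533 and 3499 to 925 and 916. These members were named for their promoters after their values were seen, and CXCL2 and CXCL3 are neighbouring genes with similar sequences.

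Other genes of immune recognition were lower less uniformly. Of 31 interferon-stimulated genes 20 were lower and 5 higher (median -0.74), and of 18 genes of MHC class I and peptide loading 16 were lower and 2 higher (median -0.72). IRF1, a transcription factor of interferon signalling, had a log2 fold change of -2.10 and IFI27 of -3.72. HLA-B had a log2 fold change of -1.76, and B2M, its light chain, rose by 0.19. The HLA genes are near-identical to each other, so their reads may have been divided. BST2 and IFITM3 rose by 0.54 and 0.60. All listed interferon-stimulated genes together held 51933 and 53660 normalized counts in EV and 61597 and 58176 in KD, so their sum did not fall.

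Genes of attachment to the basement membrane went both ways. Of 17 basement membrane genes 8 were lower and 5 higher (median -0.17), and of 14 integrins 5 were lower and 7 higher. ITGB4 and ITGA6, which together form the laminin receptor of hemidesmosomes, fell from 2856 and 2762 to 215 and 208 and from 3450 and 3305 to 933 and 921. ITGA2, the collagen receptor subunit, had a log2 fold change of -3.18 and ITGA3, another laminin receptor subunit, of -1.23. COL17A1, the collagen of hemidesmosomes, fell from 184 and 194 to 8.1 and 5.2, and the anchoring fibril collagen COL7A1 and COL4A2 had log2 fold changes of -1.58 and -1.16. The desmosomal protein DSP (-4.54) and the tight junction protein CLDN1 (-3.94) were lower with KRT14, DSP at -5.47 without KD 1 and at -3.90 without KD 2. In the whole list of intermediate filaments and epithelial junctions 11 of 15 were lower and 4 higher, and KRT8 and KRT80, with log2 fold changes of 0.79 and 1.49, were among the latter. Among the integrins that were higher, ITGB5, a vitronectin receptor subunit, had a log2 fold change of 1.03. By at least 1 log2 unit 5 integrins rose and 4 fell, and the log2 fold changes of the list ran from -3.73 to 3.44. Of the basement membrane genes 1 rose and 5 fell by as much, with a range from -4.83 to 1.05.

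The contractile apparatus was higher. Of 35 contractile and actin-binding genes 26 rose and 8 fell, against 34.8% and 39.5% of all genes, with a median of 0.55. MYL9, the regulatory light chain of smooth muscle and non-muscle myosin, stood at 1300 and 1414 normalized counts in EV and at 6802 and 6729 in KD, a log2 fold change of 2.32 (SE 0.043, adjusted p = 4.53e-22). MYLK, the kinase that phosphorylates it, rose from 877 and 872 to 3167 and 3149. MYL6, the essential light chain, rose from 17987 and 19345 to 48908 and 47143, and CNN2, a calponin, by 0.97. Among 24 YAP-TEAD targets 13 rose and 7 fell, with CCN1 at 1.28, F3 at 1.98 and TGFB2 at 1.75. ATP1B1, LMCD1, TPM1 and MDK, which the study names, had log2 fold changes of 1.21, 2.40, 1.13 and 2.41.

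The lists of matrix genes differed in their balance of rises and falls. Of 15 collagen-modifying enzymes 12 rose and 1 fell, among them LOXL1 (1.95), which crosslinks elastin and collagen, ADAMTS2 (1.53), which trims procollagen, and P4HA3 (1.62), a prolyl hydroxylase. Of 10 fibrillar and type VI collagens, however, 6 fell and 4 rose (median -0.80), with COL6A1 and COL6A2 at -1.50 and -1.67, COL3A1 at -2.02 and COL5A1 at 0.93. Matricellular and elastic fibre genes rose in 11 of 16 cases, as THBS1 (1.71) and CCN5 (1.94) did. Of 25 proteases and their inhibitors 17 rose and 7 fell, with MMP14, the membrane-bound collagenase, at 1.99 and its inhibitor TIMP2 at 1.08. By at least 1 log2 unit, however, 3 of them rose and 5 fell, the lowest at -1.89. FN1, fibronectin, rose from 5345 and 5452 to 15065 and 15247. In the list of EMT factors, 7 of 14 were higher and 6 lower, ZEB2 at -1.48 and VIM at -0.33 among the latter. Counted on its main transcript alone, ZEB2 was no longer called (-0.27, adjusted p = 0.502 by edgeR).

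Surface proteins and ligands changed in both directions. MCAM and THY1, both surface glycoproteins of the immunoglobulin family, had log2 fold changes of 3.42 each, and the tetraspanin CD82 of -2.44. Among 31 receptor tyrosine kinases and ligands 15 rose and 12 fell: EGFR fell from 2645 and 2803 to 1103 and 1130, whereas NRG1, a ligand of ERBB3 and ERBB4, rose from 203 and 196 to 1162 and 1104. GAS6 and its receptor AXL rose together, by 1.86 and 1.05, and FGFR1 rose by 1.19. BMP4 rose from 42.4 and 35.2 to 435 and 362 in a TGF-beta, activin and BMP list that was split at 12 higher and 12 lower of 30. In the Notch pathway the ligands DLL1 and JAG2 (-1.63) and the target HES1 (-2.78) were lower, while the Wnt and Notch list as a whole held 10 higher and 10 lower of 27 genes.

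Genes of respiration and glycolysis were divided. Of 75 nuclear-encoded respiratory chain genes 46 rose and 15 fell, with a median of 0.24, but the members with the smallest p were mostly falls of core subunits. UQCRC2 of complex III had a log2 fold change of -1.23, and ATP5F1A and ATP5F1B, the catalytic head of ATP synthase, of -1.01 and -1.02. ATP5MF, a small subunit of the same enzyme, rose from 3428 and 3885 to 7073 and 7302, and COX4I1 by 0.53. Of 13 mitochondrially encoded mRNAs 12 fell slightly (median -0.26). Of 24 glycolytic genes 18 fell and 5 rose (median -0.68), with PFKM at -1.56 and LDHB at -1.24, while among 16 hypoxia targets 8 rose and 4 fell, CA9 (1.36) and BNIP3 (1.30) among the former.

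Chaperones, the proteasome and splicing factors were lower in the main. Of 32 heat shock chaperones 22 fell and 8 rose, and the chaperonin subunits CCT7 and CCT3, which fold actin and tubulin, had log2 fold changes of -1.60 and -1.45, while the small heat shock protein HSPB1 rose by 0.85. Of 31 proteasome subunits 24 fell and 4 rose, PSMD2 at -1.22 and PSMA7 at 0.36. Of 25 SR and hnRNP splicing factors 18 fell, and HNRNPA2B1 changed from 28346 and 28039 to 9719 and 10386. ER chaperones and factors of the unfolded protein response were less uniform, with 16 of 29 lower and 10 higher.

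The cell cycle lists differed by phase. Of 38 mitotic genes 31 fell and 5 rose, with a median of -0.51, and CCNB1, the cyclin of mitotic entry, fell from 9063 and 8869 to 3371 and 3248. PLK1, a mitotic kinase, had a log2 fold change of -1.33. Of 38 replication genes 23 fell and 8 rose, with MCM6 at -1.50 and GINS2 at 1.06. Among 18 cyclins, kinases and inhibitors of G1, 10 rose and 4 fell, and the largest rises were of inhibitors: CDKN2C rose from 2628 and 2602 to 9120 and 8884, and CDKN1C and CDKN2D had log2 fold changes of 2.20 and 1.29. CDK6, a target of CDKN2C, rose by 1.02. MYC fell from 19651 and 19590 to 8423 and 8325. Of the 8 described replication-dependent histone genes, 0 were called by edgeR, 1 had an unadjusted p under 0.05 and DESeq2 called 0. The list held 53 such genes, of which 48 were in the table, most of them too low to be described. Together they held 1384 and 1415 normalized counts in EV and 1394 and 1306 in KD, so these libraries say little about histone mRNAs.

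The median change differed with simple properties of the mRNA. Among 11065 protein-coding genes, the 2214 with the shortest main transcripts (207 to 1691 bases) had a median log2 fold change of 0.16, and 49.7% of them were higher, whereas the medians of the other length quintiles lay between -0.13 and -0.07. Without the ribosomal proteins the shortest quintile still had a median of 0.16. Cytosolic ribosomal proteins, with a median transcript of 650 bases, and respiratory chain genes, with 758 bases, belong to this range, so their medians of 0.24 are to be set beside 0.16 and not beside the -0.04 of all genes. By GC content of the main transcript the medians went from -0.14 in both of the lowest quintiles to 0.14 in the highest, and by level they were 0.08 below 100 normalized counts, -0.13 between 300 and 1000 and 0.20 above 10000. The 636 long non-coding RNA genes had a median of 0.16. Across genes, which are not independent replicates, the Spearman correlation of the log2 fold change was -0.13 with length and 0.16 with GC content, both over the 11065 genes of the same 4 libraries, and length and GC content were themselves correlated at -0.29.

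**Figure D4:**
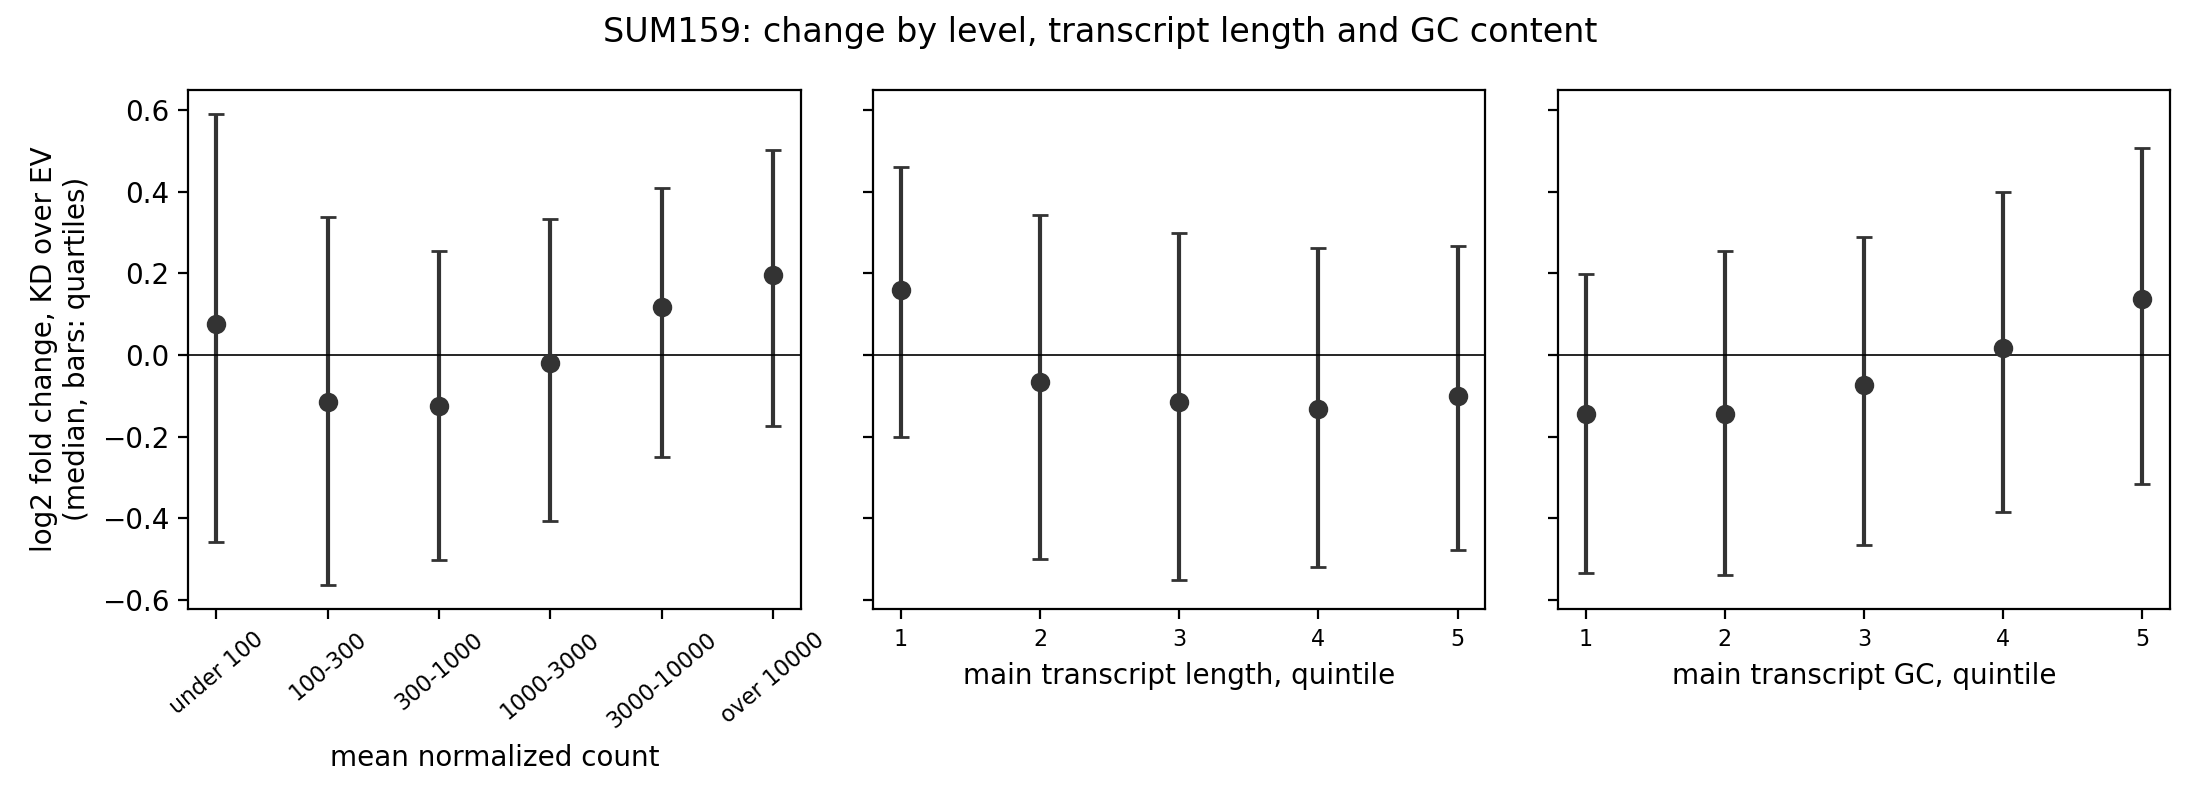
Median log2 fold change of KD over EV (points, bars from the lower to the upper quartile) by mean normalized count over all 11818 genes, and by quintile of main transcript length and of GC content over 11065 protein-coding genes. The shortest transcripts (0.16), the most GC-rich (0.14) and the most abundant mRNAs (0.20) have medians above zero.

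Neighbouring genes also moved together in places. By chromosome the median log2 fold change went from -0.29 on chromosomes 2 and 21 to 0.14 on chromosome 9, and on chromosome 2, with 787 genes, 56.2% were lower and 20.1% higher. In windows of 25 neighbouring described genes, the highest median was at chr7:100101549-100867010 from AP4M1 to SLC12A9, where 23 of 25 genes were higher, with a median of 0.95. NPTX2 and TMEM130, named above, lie on the same chromosome between 98617285 and 98870771, with ASNS, which fell, shortly before them. The lowest median was on chromosome 1 between 205086142 and 209652425, from RBBP5 to LAMB3, where 20 of 25 were lower and 2 higher (median -0.78). The windows were ranked by their medians and are given as a description, with overlapping windows left out. Whether the copy number of these regions was the same in EV and KD cells was not measured.

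**Figure D5:**
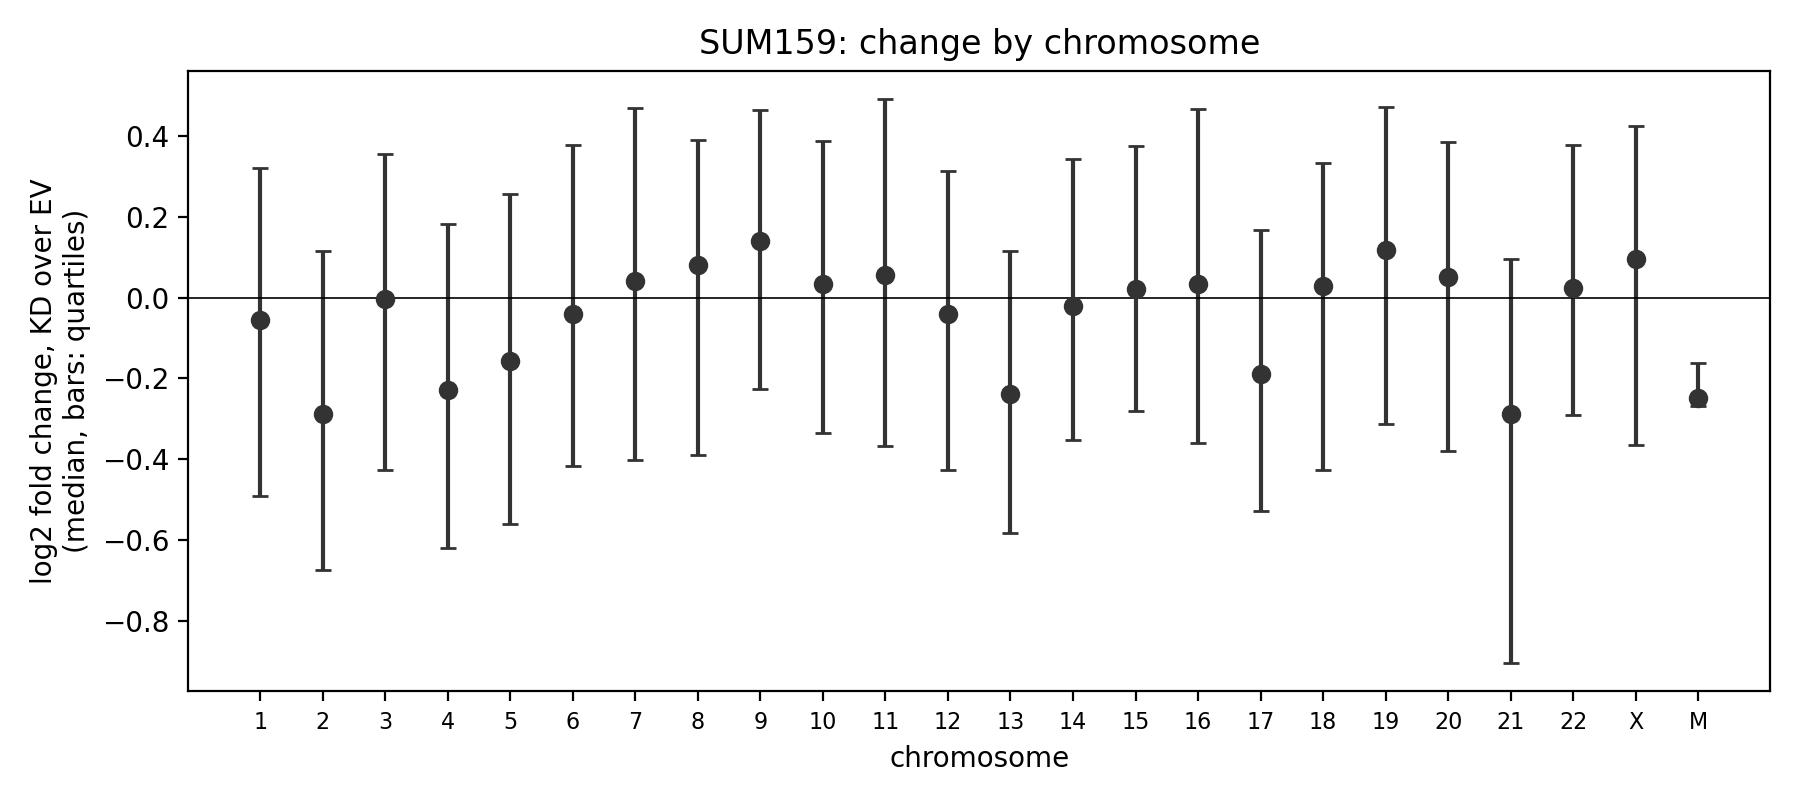
Median log2 fold change of KD over EV of the described genes on each chromosome (points, bars from the lower to the upper quartile). Chromosomes 2 and 21 have the lowest medians (both -0.29), chromosome 9 the highest (0.14), and the quartiles of all of them overlap.

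The 10 largest rises and the 10 largest falls were set beside the same knockdown in MDA-MB-231, another triple-negative line, whose libraries are not shared with SUM159. Of these 20 genes 11 were measured in MDA-MB-231, the others having a mean of at most 3 counts there. For 10 of the 11 the contrast of both KD effects in edgeR had an adjusted p-value under 0.05, beside 65.1% of the 11580 described genes measured in both lines. The 20 were chosen for their SUM159 values, which favours such a difference, so nothing is read from that count. SSX1 was the eleventh, with 0 counts in both EV libraries of MDA-MB-231 and 10.3 and 1.9 normalized counts in KD. DKK1 rose in both lines, from 8558 and 8776 to 12657 and 12750 in MDA-MB-231, but by 3.68 log2 units more in SUM159. For IL1A, MDA-MB-231 had 256 and 236 in its EV libraries against 255 and 267 with KD, where its fall was not seen.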

How the data were processed

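Polysomal RNA of 12 libraries was sequenced, of which the 4 of SUM159 are described. Per the paper's methods, Trimmomatic (trimming), HISAT2 (alignment to GRCh38) and SAMtools (removal of duplicates) were the tools the authors used, and the submitters' processing notes also name Partek. The methods name a stranded total RNA kit with rRNA depletion and the labels a poly(A) kit. Neither the selection of RNA nor the strand is therefore settled. Values in the deposited table are expected counts of Ensembl transcripts, not normalized. The deposited columns of SUM159 and MDA-MB-231 carry a missing mark in 5.08% of rows, which was counted as 0, and were recorded as another unit for that reason. No transcript at 0 in all BT549 libraries is listed, so such genes are not analysed here.

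Transcripts were matched to GENCODE 44 (79.6%, holding 99.25% to 99.27% of the SUM159 counts), summed per symbol and rounded. edgeR 4.0.16 (R 4.3.3) tested 16538 genes kept by filterByExpr after TMM, fitting the means of the 6 groups jointly (6 residual degrees of freedom), with Benjamini-Hochberg adjustment over all of them and calls at an adjusted p-value under 0.05. The common dispersion was 0.000835. Genes are located by GENCODE 44. On simulated counts of the SUM159 comparison, over 11656 genes, 89% of changes of 0.5 log2 units and 100% of changes of 1 were recovered, and 3.08% of calls were of unchanged genes. The simulation gave every gene the common dispersion and changed few genes. In the data most genes were called and the spread may differ between genes, so these rates need not hold there. Alternatives were DESeq2 1.42.0 (Wald test), scaling by RLE or by library size only, no filter, the 4 libraries alone, a replicate block, marked transcripts left out, the main transcript alone, leaving out each library, and a mean of at least 20 or 100 counts. A library with 0 reads of a gene was taken to allow 3, and intervals cover counting error only.

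The members, the 55 gene lists and 7 marker lists, and the tests were chosen with earlier results of these data known. The text names TRMT112 and its partners, the 20 largest changes in each direction among called genes whose groups do not overlap, the 10 largest differences of normalized counts in each direction, up to 5 members with the smallest p and the 2 most abundant of each list, and genes the study names; not all of them are printed, and some are not reported here. Figures were drawn with matplotlib 3.10.9 in Python 3.11.15.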

Additional observations from a re-analysis of the deposited data

Results flagged for a closer look

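For 10 of the 20 largest changes, the effect of KD in SUM159 differed from that in MDA-MB-231 by the contrast of both effects (edgeR, adjusted p-value under 0.05), as it did for 65.1% of all 11580 described genes measured in both lines. These genes were chosen for their extreme SUM159 values, which favours a difference, so the values are a description. The difference, SUM159 minus MDA-MB-231, was 5.07 log2 units for ILDR2, 6.02 for ZNF93, 4.82 for PLEKHA7, 4.95 for ZNF595, 3.63 for ST6GALNAC5 and 3.68 for DKK1, which were the rises. It was -8.71 for ACOT2, -7.96 for RASIP1, -7.37 for MT1E and -7.12 for IL1A, which were the falls. Where one group of SUM159 held a handful of reads, as for ACOT2 with 0 and 1 and MT1E with 0 and 1 in KD, or ZNF93 with 1 and 4 in EV, the fitted difference depends on the prior count and is no bound. In MDA-MB-231 the KD effect was 0.54 (SE 0.119) for ILDR2, 0.82 (SE 0.099) for ST6GALNAC5 and 0.55 (SE 0.032) for DKK1, the same direction as in SUM159, and -0.51 for ACOT2 and -0.45 for MT1E. ZNF93, ZNF595, PLEKHA7, RASIP1 and IL1A had KD effects of -0.53, -0.49, 0.48, 0.12 and 0.09 in MDA-MB-231, none of which passed the test by edgeR.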

How the results depend on the processing

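Over 13 alternatives, each of the 4 counts of genes stayed within 1.5 times its reported value. Genes higher ranged from 3711 (without EV 2) to 4491 (RLE size factors) among the 11818, and genes lower from 4086 (DESeq2) to 4934 (library size only). With RLE size factors the median over all genes moved from -0.04 to 0.02 and higher calls outnumbered lower ones, 4491 against 4273. The same held with DESeq2, at a median of 0.016 and 4302 higher against 4086 lower genes. Which direction held more calls therefore depended on the method. Under the replicate block 4082 were higher and 4670 lower. Deviations of same-numbered SUM159 libraries from their group means had a correlation of -0.025 across genes. With 2 libraries a group these deviations hold much counting noise, so they cannot tell whether same-numbered libraries shared a preparation. Leaving out each library gave 3711 to 3823 higher and 4323 to 4358 lower genes.

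List medians near zero turned sign. With library size only, the median of SRF-MRTF targets was -0.0367 and that of the TGF-beta, activin and BMP list -0.000233. With RLE size factors, histones stood at 0.0164 and lysosome genes at 0.0282. When single libraries were left out, the medians ranged from -0.0262 to 0.0281 (SRF-MRTF targets), from -0.00745 to 0.0477 (TGF-beta, activin and BMP), from -0.137 to 0.000845 (histones), from -0.0433 to 0.0146 (lysosome) and from -0.0180 to 0.0574 (polyamine genes). Of 212 genes only METTL5 turned sign, at -0.0172 with the main transcript only, a setting that put TPM4 at 1.52 and MDK at 3.02. The cause was not tested. Depth limits the genes with a handful of reads in one group, whose fitted changes moved with single libraries.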

Other observations

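Other gene groups changed in both directions. Of 24 NRF2 targets, which protect from oxidants, 14 were lower and 8 higher, with the aldo-keto reductase AKR1C2 at a log2 fold change of -2.59. Of 24 genes of sterol synthesis and uptake 12 were lower and 11 higher, FDFT1 at -1.10 and INSIG1, a brake on sterol synthesis, up from 7614 and 7807 normalized counts to 21507 and 22207, and of 17 fatty acid genes 12 were lower and 4 higher, SCD5 at -1.43. Among 17 p53 targets 8 fell and 3 rose, and the death genes were not alike, with PMAIP1 at -3.79, BBC3 at -1.78 and BAX at 0.62. In the MYC network 7 of 13 were lower and 3 higher, ARRDC4, a relative of TXNIP, at -1.99.

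Within the S100 and annexin families 8 of 17 rose and 8 fell. S100A2, a basal epithelial member, fell from 8118 and 8813 normalized counts to 542 and 509, and S100A4 rose from 3505 and 3912 to 10417 and 10546. ANXA8, whose reads may be divided with its near-identical copy, had a log2 fold change of -4.35. Of 32 lysosome and autophagy genes 12 rose and 14 fell, NPC2 at 1.19 and PSAP at -0.91, and of 16 checkpoint and NK ligand genes 9 rose and 5 fell, with CD55 at -1.42 and MICA at 0.91. Of 16 snoRNA host genes 7 fell and 1 rose, SNHG1 at -1.53 (-2.49 on its main transcript only), and of 12 HOX genes 4 rose and 2 fell, HOXC13 at 1.25. All 3 described metallothioneins fell, MT2A by 0.49 on the log2 scale. Polyamine genes (4 higher and 4 lower of 10) and SRF-MRTF targets (8 higher and 7 lower of 17) were divided, with SRM at 0.61 and JUNB at -1.51.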
